A study of Homo sapiens with 6 samples.

Results

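LTBP2 and LRRC32 are grouped here under the latent TGF-beta system, although LTBP2 itself does not bind latent TGF-beta. Both were lower in iron-treated retinal pigment epithelial cells than in untreated ones. They were taken from the 14884 named genes of the array by the gene symbol of their probes. LTBP2 has 2 probes and LRRC32 has 1, which makes 3 of the 53617 probes measured. Both genes were chosen because earlier results of this same comparison showed them lower with iron, so their changes below are a description and carry no test. Total RNA came from ARPE-19, an established human cell line of retinal pigment epithelium, held confluent in 1% serum for 4 weeks to differentiate. The cells then spent 2 days in medium without serum, with vehicle in the untreated group and with 250 µM FAC, usually ferric ammonium citrate, in the other. Each group had 3 biological replicates, each on an array of its own, and 1 cell line limits what the groups stand for. Values are log2 intensities as deposited, given as mean ± SD with n = 3, and a change is the FAC mean minus the untreated mean on that scale, ± the SE of limma's fit.

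TGF-beta is secreted in a latent form, in which its own propeptide wraps the growth factor and keeps it from its receptors. Latent TGF-beta binding proteins (LTBPs) anchor that complex to fibrillin microfibrils of the extracellular matrix, whereas LRRC32, also called GARP, is a membrane protein with leucine-rich repeats that tethers it to the cell surface, above all on regulatory T cells and platelets. Integrins then pull the growth factor free. LTBP2 shares the domain structure and the fibrillin binding of its family but, unlike LTBP1, LTBP3 and LTBP4, does not bind latent TGF-beta, so the name of the family does not describe what LTBP2 holds. It is known to bind fibrillin-1 and the elastic fibre protein fibulin-5, and mutations in it cause eye disease of the lens zonule and the drainage angle.

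To set LTBP2 beside the 2 paralogs whose arrays also did not overlap between groups, the 250 bases before the RefSeq start are printed for LTBP2 and for the first listed starts of LTBP1 and LTBP3, 5′ to 3′ on the strand of the gene (GRCh38.p14). LTBP2 is at chr14:74612238-74612487 on the minus strand, LTBP1 at chr2:32946703-32946952 on the plus strand and LTBP3 at chr11:65558360-65558609 on the minus strand. Capitals mark the SMAD core CAGAC and the core ACGTG bound by hypoxia-inducible factors (HIF), searched on both strands.
LTBP2: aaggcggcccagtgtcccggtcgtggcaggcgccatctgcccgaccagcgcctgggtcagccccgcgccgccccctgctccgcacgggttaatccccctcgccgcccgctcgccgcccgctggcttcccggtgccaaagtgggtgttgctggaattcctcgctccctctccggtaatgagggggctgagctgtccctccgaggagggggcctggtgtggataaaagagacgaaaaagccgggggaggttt
LTBP1: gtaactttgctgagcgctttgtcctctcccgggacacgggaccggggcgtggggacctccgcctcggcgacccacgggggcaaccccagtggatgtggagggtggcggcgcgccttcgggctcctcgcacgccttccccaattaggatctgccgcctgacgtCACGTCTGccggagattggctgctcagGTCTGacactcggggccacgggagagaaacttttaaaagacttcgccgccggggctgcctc
LTBP3: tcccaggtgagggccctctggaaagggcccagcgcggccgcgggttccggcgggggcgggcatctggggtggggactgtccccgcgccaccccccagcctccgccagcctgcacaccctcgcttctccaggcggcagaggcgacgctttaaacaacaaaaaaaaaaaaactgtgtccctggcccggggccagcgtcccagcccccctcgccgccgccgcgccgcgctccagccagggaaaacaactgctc
The LTBP2 and LTBP3 windows hold neither core. The LTBP1 window holds the SMAD core at bases -85 and -61 and the HIF core at base -88 (first base of the match, counted back from the start), and the matches at -88 and -85 overlap. Of 35116 windows of this length in the RefSeq table, 38.0% hold the SMAD core and 18.5% the HIF core on either strand. The LTBP2 window is 68.8% G and C, against a median of 58.0% over all windows. Such matches describe letters only.

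LTBP2 was lower on every FAC array. Its main probe, the one with the higher mean, read 12.06, 12.10 and 12.19 in untreated replicates 1 to 3 and 11.50, 11.57 and 11.67 in FAC replicates 1 to 3. The groups did not overlap, and 0.40 separated the lowest untreated from the highest FAC array. The means were 12.12 ± 0.07 and 11.58 ± 0.08, a change of -0.53 ± 0.06 or 1.45-fold lower. LTBP2 replicates were close, with a within-group SD of 0.08 against a median of 0.09 over all genes. By mean level the main probe stood at percentile 99.2 of the tested genes, though the brightness of a probe depends on its sequence as well as on its transcript.

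The second LTBP2 probe read lower with FAC too, but by less. It read 7.46, 7.32 and 7.52 in untreated replicates 1 to 3 and 7.15, 7.08 and 7.05 in FAC replicates 1 to 3, again without overlap. The means were 7.43 ± 0.10 and 7.09 ± 0.05, a change of -0.34 ± 0.07 in a fit over every probe, and with both probes averaged the change of LTBP2 was -0.44. The annotation gives both probes the same transcript accession. LTBP2 lies on the minus strand of chromosome 14. Among the 40 named probes with the nearest identifiers, the main probe stood among genes of the minus strand (30 of 34 with a listed strand) and the second among genes of the plus strand (36 of 37). Whether the second probe reads LTBP2 messenger RNA was not tested.

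LRRC32 had the larger change and the larger spread. It read 7.99, 7.67 and 7.76 in untreated replicates 1 to 3 and 6.96, 7.02 and 6.60 in FAC replicates 1 to 3. The groups did not overlap, and the gap between the lowest untreated and the highest FAC array was 0.65. FAC replicate 3 lay lowest, 0.26 below the mean of its group. The means were 7.81 ± 0.17 and 6.86 ± 0.23, a change of -0.95 ± 0.13 or 1.93-fold lower, and leaving out FAC replicate 3 gave -0.82. Its within-group SD of 0.20 stood at percentile 94.7 of all genes, and its mean level at percentile 52.9.

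**Figure D1:**
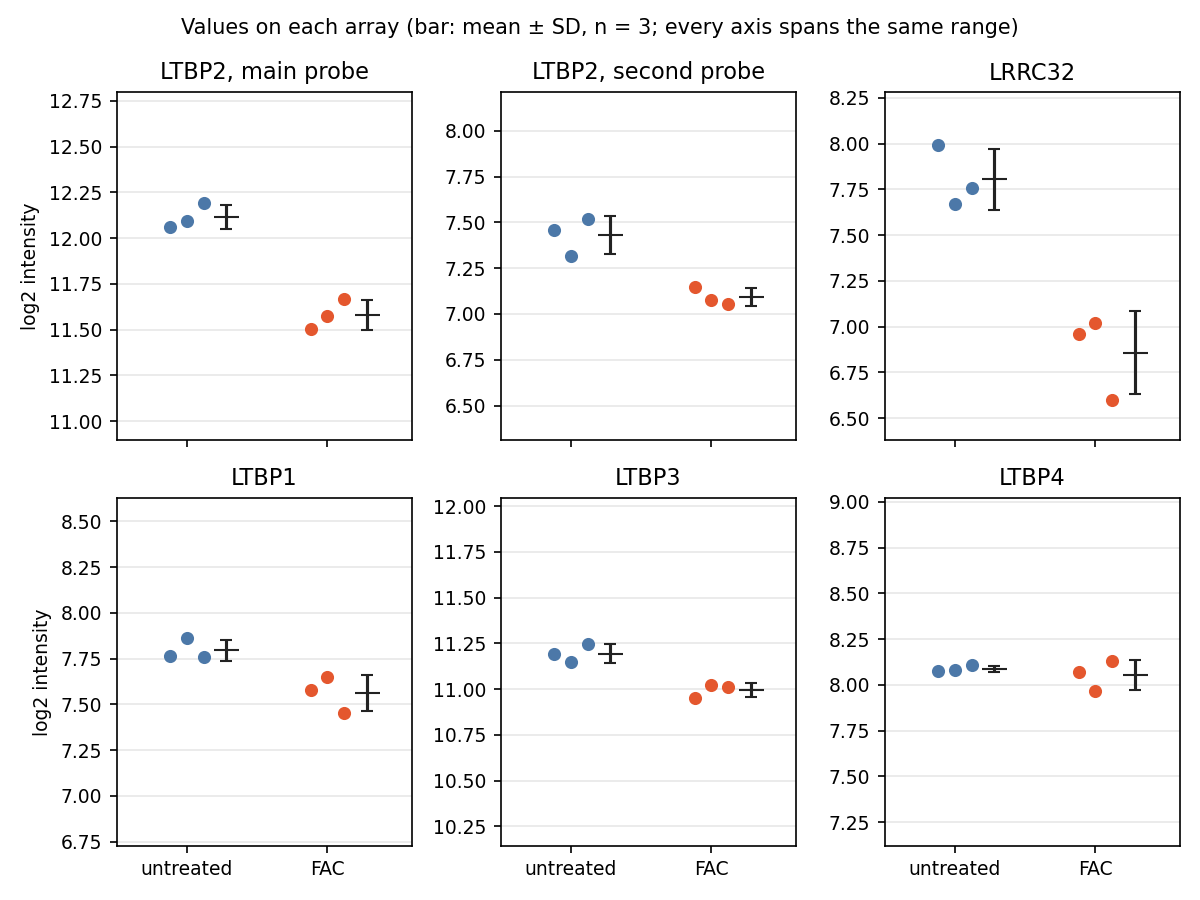
Log2 intensity on each of the 6 arrays (points) with mean ± SD (n = 3 per group) for both LTBP2 probes, LRRC32 and the paralogs LTBP1, LTBP3 and LTBP4, on axes that span the same range. The FAC points lie below the untreated points in every panel but that of LTBP4, where they overlap.

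Of 14884 genes, 5 had a more negative change than LRRC32, and 73 had a more negative change than LTBP2. Across all genes 13.0% had all FAC arrays below all untreated arrays. Both members were picked from such genes, so nothing is read from their place there. The LTBP2 main probe and LRRC32 lay on the same side of their group means only in untreated replicate 2 (-0.02 and -0.14). In FAC replicate 3 LTBP2 stood 0.09 above the mean of its group and LRRC32 stood 0.26 below. In untreated replicate 1 LTBP2 lay at -0.05 and LRRC32 at 0.18 from the group mean. The second LTBP2 probe lay on the side of LRRC32 in both of these arrays (-0.04 and 0.03). With 3 arrays a group, whether the pair moves together was not tested. In bulk RNA, fewer cells that express a gene and less RNA per cell cannot be told apart.

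**Figure D2:**
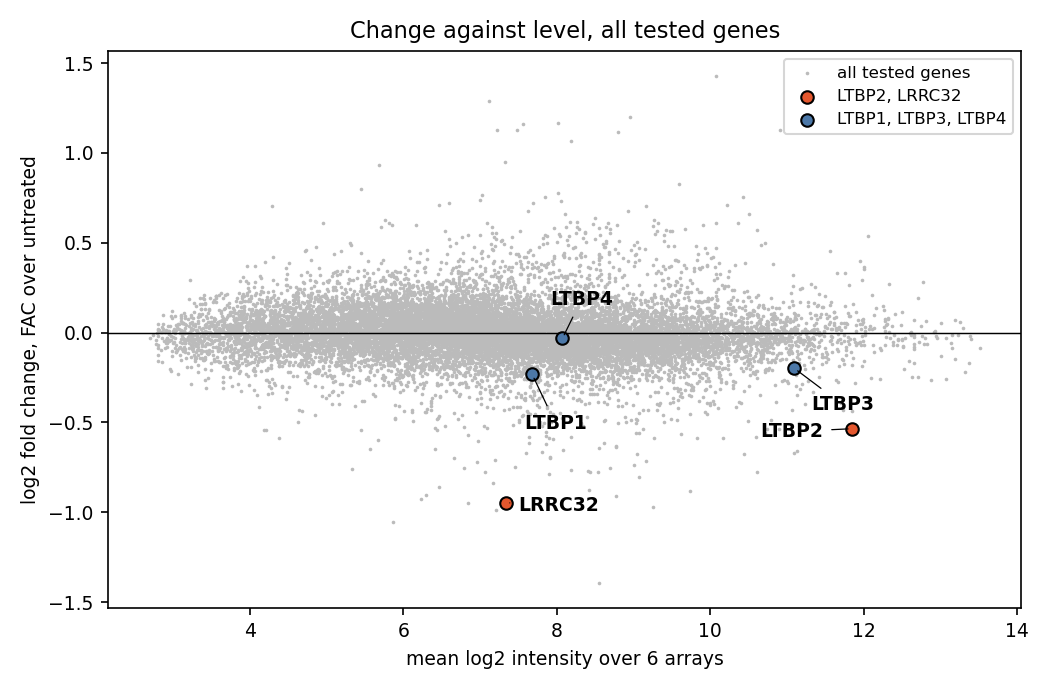
Log2 fold change of FAC over untreated (vertical) against mean log2 intensity over 6 arrays (horizontal) for 14884 genes, with LTBP2 and LRRC32 in red and LTBP1, LTBP3 and LTBP4 in blue. LRRC32 lies at -0.95 at a middling level and LTBP2 at -0.53 near the bright end, while the paralogs lie between -0.23 and -0.03.

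None of the other LTBPs and fibrillins passed the test, whose background was 3.73% of all genes called, 1.85% lower and 1.88% higher (limma, Benjamini-Hochberg adjusted p under 0.05 over all genes). Of the 6 genes in this group, 4 had an unadjusted p under 0.05, as did 17.2% of all genes. In 3 of the 6 all FAC arrays lay below all untreated arrays, where 13.0% of all genes did. In 1 all lay above, a pattern not counted over all genes, so nothing is read from that number. LTBP1, the main carrier of latent TGF-beta in matrix, read 7.76, 7.86 and 7.76 in untreated and 7.58, 7.65 and 7.45 in FAC replicates (-0.23 ± 0.07, adjusted p = 0.119). LTBP3 read 11.19, 11.15 and 11.25 against 10.95, 11.02 and 11.01 (-0.20 ± 0.05, adjusted p = 0.101). The groups of LTBP1 and LTBP3 did not overlap, although neither passed. LTBP4, which also guides elastic fibre assembly, overlapped between groups at 8.09 ± 0.02 and 8.06 ± 0.08 (-0.03 ± 0.06, 95% interval -0.17 to 0.10, adjusted p = 0.833). Whether LTBP2 differs from its paralogs was not tested, since LTBP2 was chosen for its change.

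The fibrillins form the microfibrils that LTBP2 binds. FBN1, the main fibrillin of adult tissue, measured 12.63 ± 0.03 and 12.43 ± 0.03 (-0.20 ± 0.05, adjusted p = 0.0777), with no overlap. FBN1 and LTBP3 passed in 2 of 14 alternative settings, without the dimmest genes (adjusted p = 0.0325 and 0.0469) and with an intensity trend and robust estimation (0.00129 and 0.00814). FBN2, the fibrillin of developing tissue, measured 8.63 ± 0.04 and 8.78 ± 0.06 (0.16 ± 0.06, adjusted p = 0.201), with the FAC arrays above. The median change of the 6 LTBP and fibrillin genes was -0.12, against -0.0041 over all genes. NRROS, the relative of LRRC32 that holds latent TGF-beta on myeloid cells, measured 5.34 ± 0.10 and 5.35 ± 0.05 (0.01 ± 0.07, 95% interval -0.15 to 0.16, adjusted p = 0.965). It was the 1 gene measured of 7 surface holders and integrins, at percentile 17.9 by level, where a change could be missed without detection calls.

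Of 19 measured genes of microfibrils and elastic fibres, 1 rose and 2 fell, where 1.88% of all genes rose and 1.85% fell. FBLN5, the gene of fibulin-5, rose from 8.08 ± 0.08 to 8.61 ± 0.13 (0.53 ± 0.08, adjusted p = 0.0142). LOXL2 (-0.29 ± 0.06, adjusted p = 0.0396) and LOX (-0.26 ± 0.05, adjusted p = 0.0335), enzymes that cross-link elastin and collagen, fell. The list had a median of -0.07. In 8 of its genes all FAC arrays lay below all untreated arrays, where 13.0% of all genes did. In 2 all lay above, a pattern not counted over all genes, so nothing is read from that number. Neither LOX (adjusted p from 0.0756 to 0.123) nor LOXL2 (from 0.0569 to 0.134) passed without any 1 array, and FBLN5 lost its call when replicate 3 of either group was left out (adjusted p = 0.0602 for untreated and 0.0551 for FAC), with every probe tested (0.0654) and with the replicate block (0.0599). LOX and LOXL2 did not pass with every probe (0.132 and 0.142) or with the replicate block (0.112 and 0.107).

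Among 10 measured genes of TGF-beta ligands, propeptide processing and activation, PCSK5, a proprotein convertase, rose from 7.13 ± 0.08 to 7.50 ± 0.04 (0.37 ± 0.06, adjusted p = 0.0194) and none fell. Over all genes 1.88% rose and 1.85% fell. PCSK5 did not pass when untreated replicate 1 was left out (adjusted p = 0.0590), nor without FAC replicate 1, 2 or 3 (0.0909, 0.0603 and 0.0579), with every probe tested (0.0846) or with the replicate block (0.0691). THBS1, an activator of the latent complex, measured 13.46 ± 0.01 and 13.29 ± 0.02 (-0.17 ± 0.05, adjusted p = 0.122). The median of this list was -0.05. The ligand genes TGFB1, TGFB2 and TGFB3 and the integrin genes ITGAV and ITGB8 had no named probe and were not analysed here. The receptor genes TGFBR1 and TGFBR2 had no named probe either, so nothing is read about them. None of 3 measured genes in the list of receptors and associated proteins passed. Nor had any an unadjusted p under 0.05 (17.2% of all genes did). LRG1, which is not itself a receptor, gave 0.09 ± 0.05 (adjusted p = 0.442) and ENG 0.07 ± 0.08 (adjusted p = 0.697).

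In the list of TGF-beta induced genes, 6 of 16 measured fell (1.85% of all genes did) and none rose (1.88%), with a median of -0.25. The feedback inhibitor gene SMAD7 (-0.59 ± 0.07, adjusted p = 0.00714), ANGPTL4, a secreted inhibitor of lipoprotein lipase (-0.58 ± 0.08, adjusted p = 0.0101), and the NADPH oxidase gene NOX4 (-0.58 ± 0.06, adjusted p = 0.00334) fell the most. JUNB, an AP-1 subunit (-0.40 ± 0.07, adjusted p = 0.0223), and SKIL, a repressor of SMADs (-0.40 ± 0.06, adjusted p = 0.0116), followed, and CCN2, a matricellular protein gene, was the other (-0.26 ± 0.05, adjusted p = 0.0439). SMAD7 and NOX4 passed in all 14 alternative settings. Without untreated replicate 3 or FAC replicate 1, ANGPTL4 (adjusted p = 0.0514 and 0.0559) and SKIL (0.0575 and 0.0544) did not pass. With every probe tested ANGPTL4 (adjusted p = 0.0521) and SKIL (0.0614) did not pass either, nor did SKIL with the replicate block (0.0549). CCN2 did not pass without any 1 array (adjusted p from 0.0572 to 0.151), and of the 6 fits without 1 array JUNB passed only in that without untreated replicate 2 (otherwise from 0.0611 to 0.0855). Neither JUNB (adjusted p = 0.0927 and 0.0502) nor CCN2 (0.153 and 0.136) passed with every probe tested or with the replicate block, and CCN2 did not with arrays centred on their medians (0.0536) or its probes averaged (0.125).

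Small leucine-rich proteoglycans share the repeat type of LRRC32, and several bind TGF-beta. Of 12 measured, 1 rose and 2 fell, where 1.88% of all genes rose and 1.85% fell. EPYC, the gene of epiphycan, fell from 7.32 ± 0.12 to 6.59 ± 0.01 (-0.72 ± 0.07, adjusted p = 0.00306), and LUM, that of lumican, fell from 9.31 ± 0.15 to 8.75 ± 0.02 (-0.56 ± 0.08, adjusted p = 0.0104). PRELP, whose product anchors basement membrane to connective tissue, rose from 8.26 ± 0.08 to 8.85 ± 0.09 (0.58 ± 0.07, adjusted p = 0.00669). EPYC and PRELP passed in all 14 alternative settings, and LUM passed in 12, but not without FAC replicate 1 (adjusted p = 0.0559) or with every probe tested (0.0529). The median was 0.05. Over all 7 lists, 3 of 66 measured genes rose and 10 fell, where 1.88% of all genes rose and 1.85% fell. The lists were chosen with earlier results of these data known, so that count is no independent evidence.

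**Figure D3:**
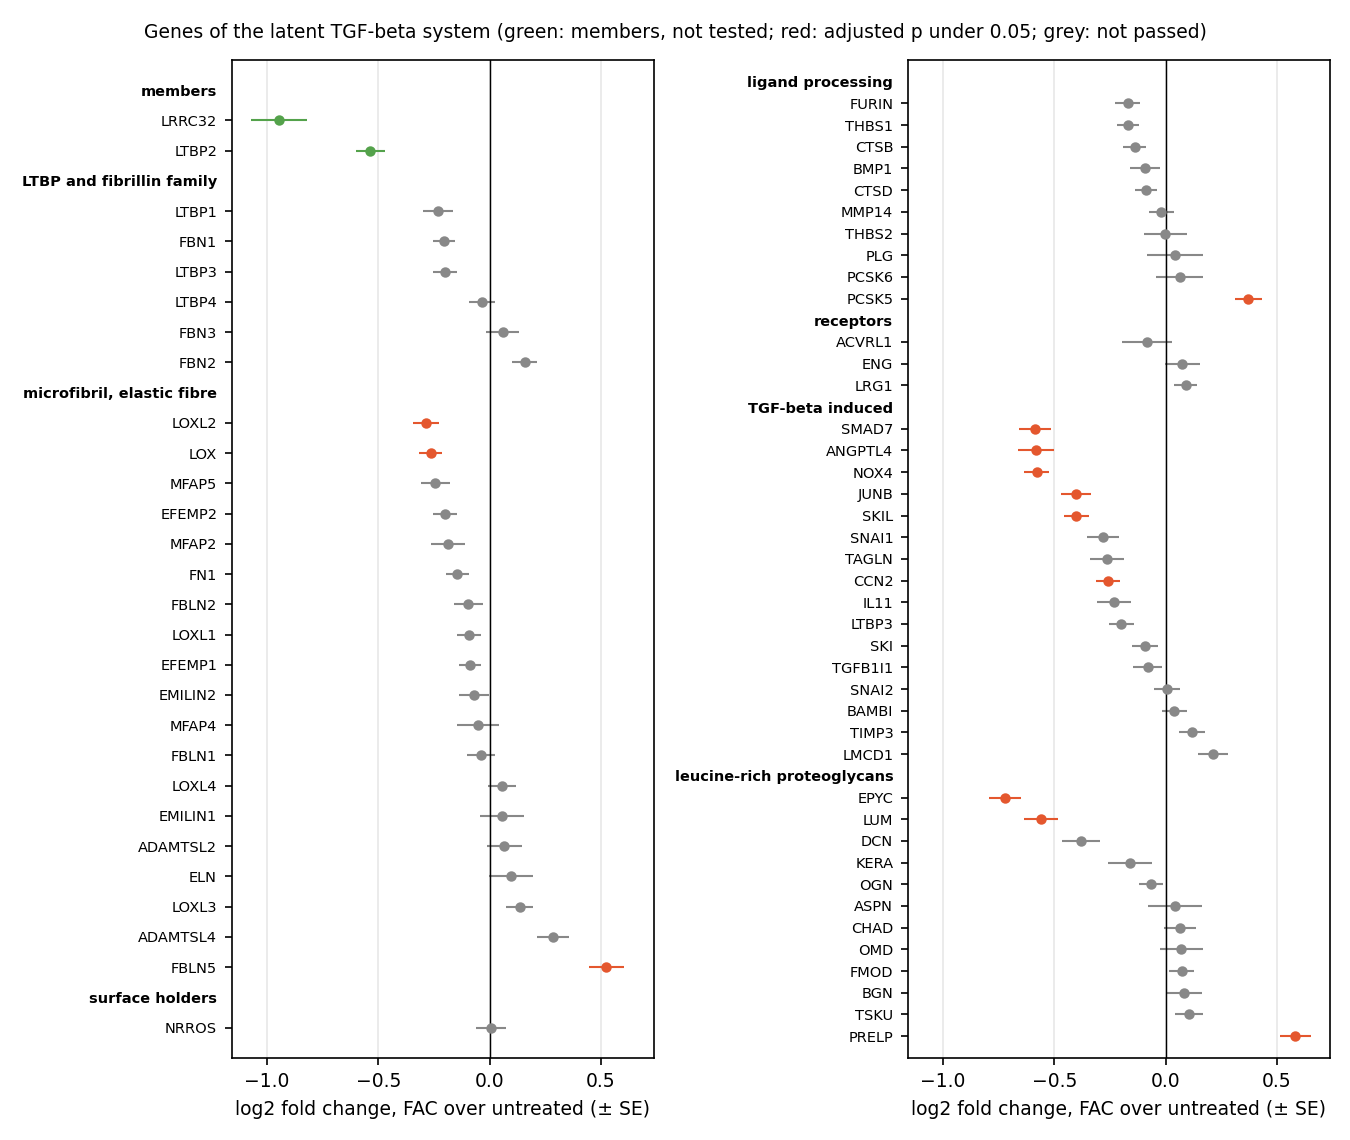
Log2 fold change of FAC over untreated ± SE for LTBP2 and LRRC32 (green, not tested) and for the measured genes of 7 lists (red: adjusted p under 0.05, grey: not passed; LTBP3 stands in 2 lists). LRRC32 lies furthest to the left at -0.95, LTBP1, LTBP3 and FBN1 lie between -0.23 and -0.20, and FBLN5, PCSK5 and PRELP lie to the right of 0.

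The genes nearest to each member in the pattern over the 6 arrays were not the same. Likeness was the root mean square difference between log2 values after subtracting the mean of each gene, among 7231 other genes of at least median level, and it mostly follows the size of the FAC change. Nearest to LTBP2 were KDM3A, a histone demethylase gene (0.04), HILPDA, a lipid droplet gene (0.04), the phosphoglucomutase gene PGM1 (0.05), NAV1 (0.06) and LXN, a carboxypeptidase inhibitor gene (0.06). KDM3A read 9.20, 9.25 and 9.39 in untreated and 8.75, 8.76 and 8.87 in FAC replicates, so that replicate 3 was highest in both groups, as for LTBP2. Nearest to LRRC32 were the matrix protein gene HMCN1 (0.11), SMAD6, an inhibitor of BMP signalling (0.15), ANKRD37 (0.15), the interferon-induced gene IFI44L (0.16) and NKAIN2 (0.17). HMCN1 read 9.90, 9.47 and 9.86 against 8.89, 8.83 and 8.61, with untreated replicate 1 highest and FAC replicate 3 lowest, as for LRRC32. KDM3A and HMCN1 were picked for likeness over these same arrays, so nothing is read from the shared order of replicates. LTBP2 was 76th in the order for LRRC32, and LRRC32 5025th in that for LTBP2, at a difference of 0.29. LTBP4, which changed by -0.03, was 2897th for LTBP2. These ranks rest on the sizes of the changes for which the pair was chosen, so nothing is read from them.

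**Figure D4:**
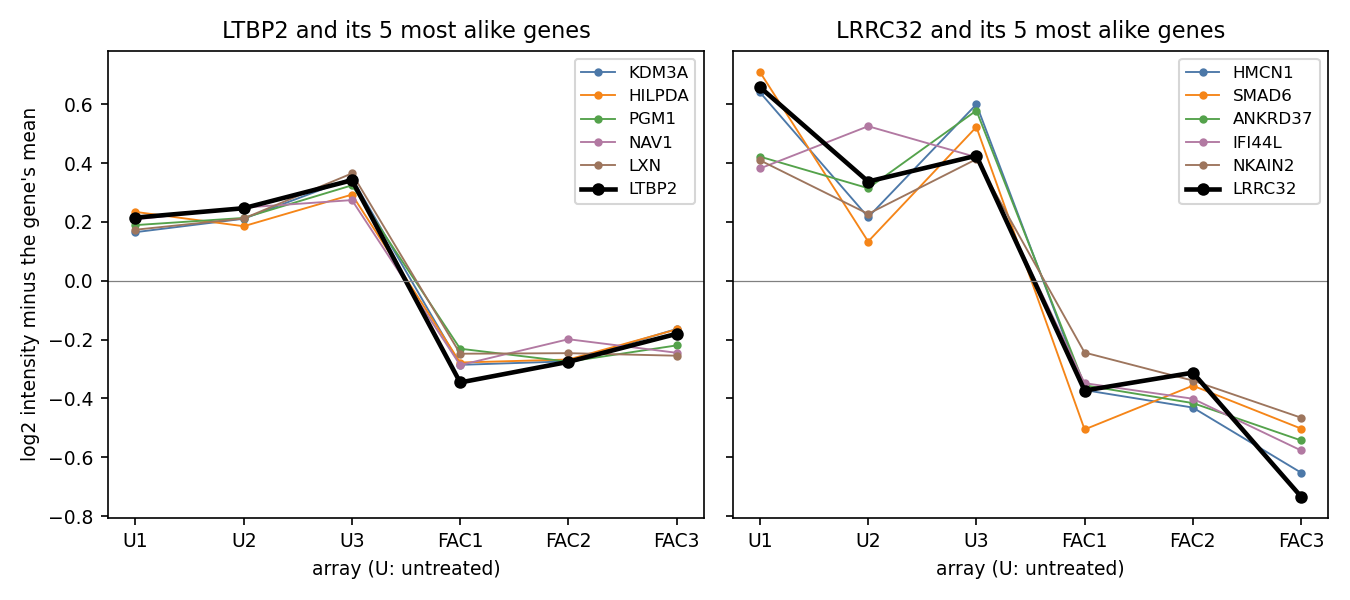
Log2 intensity minus the mean of each gene (vertical) on the 6 arrays (horizontal; U1 to U3 untreated, FAC1 to FAC3 treated; replicates have no order and lines only join the points of a gene), for LTBP2 and LRRC32 (black) and the 5 genes nearest to each. LTBP2 spans -0.35 to 0.34 and LRRC32 -0.73 to 0.66.

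Genes next to LTBP2 and LRRC32 on their chromosomes mostly did not pass, where 3.73% of all genes passed. Of the 3 nearest named genes on either side of LTBP2 on chromosome 14, YLPM1, which encodes a nuclear protein, fell (-0.30 ± 0.05, adjusted p = 0.0255), but did not pass without any 1 array (adjusted p from 0.0611 to 0.107), with every probe tested (0.106) or with the replicate block (0.0821). The closest were ISCA2, of mitochondrial iron-sulfur cluster assembly, with FAC arrays above (0.18 ± 0.08, adjusted p = 0.278), and AREL1, with FAC arrays below (-0.15 ± 0.06, adjusted p = 0.274). None of the 6 nearest named genes around LRRC32 on chromosome 11 passed. The closest there were EMSY (-0.05 ± 0.07, adjusted p = 0.802) and TSKU (0.10 ± 0.06, adjusted p = 0.459).

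Cell type markers were read because LRRC32 is best known from other cells. Over all genes 3.73% passed, 1.85% lower and 1.88% higher. Of 11 measured pigment epithelium markers none passed, the visual cycle gene RLBP1 (0.31 ± 0.08, adjusted p = 0.0843) and MITF (-0.15 ± 0.06, adjusted p = 0.215) coming closest, with list means from 7.91 to 8.15 over untreated and from 7.99 to 8.07 over FAC arrays. OTX2, KRT18 and TYRP1 stood at percentiles 97.7, 97.5 and 92.2 by level, but RPE65 and BEST1, which define the mature epithelium, at 22.6 and 26.5. Of 5 measured regulatory T cell markers CD4 fell (-0.30 ± 0.06, adjusted p = 0.0438; from 0.0573 to 0.165 without any 1 array, 0.150 with every probe, 0.0910 with the replicate block and 0.0622 with an intensity trend), and FOXP3, which defines these cells, gave 0.01 ± 0.05. List means of these T cell markers ran from 5.97 to 5.99 over untreated and from 5.93 to 5.996 over FAC arrays. None of 5 platelet (means from 6.04 to 6.08 and from 6.02 to 6.19) or 8 endothelial markers (from 6.02 to 6.09 and from 6.02 to 6.11) passed. The smallest p-values were those of GP9 (0.15 ± 0.08, adjusted p = 0.361) and TREML1 (0.14 ± 0.09, adjusted p = 0.491) for platelets, and of KDR (-0.36 ± 0.14, adjusted p = 0.238) and CLDN5 (0.16 ± 0.07, adjusted p = 0.261) for endothelium. Of 4 measured fibroblast markers LUM, also counted above, fell, and list means ran from 7.01 to 7.03 and from 6.76 to 6.79. DCN gave -0.38 ± 0.09 (adjusted p = 0.0539), while THY1 (-0.03 ± 0.06) and S100A4 (-0.03 ± 0.08) changed little. The fibroblast list held 10 genes and the T cell list 11, and those without a named probe were not read. The part of these markers in the changes of LTBP2 and LRRC32 was not tested. Array medians over all probes ran from 6.03 to 6.09, and Pearson's r between arrays ran from 0.991 to 0.995 across probes.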

How the data were processed

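Total RNA of 6 ARPE-19 cultures was amplified, biotin labelled and hybridised singly, per the labels' protocols. The authors deposited 1 table of 53617 probes on the log2 scale. RMA and Partek 6.6 stand in the submitters' processing notes without order or role, and the values run from 2.41 to 14.22, which fits that unit. No detection calls or scan dates were used, so background and batches could not be examined, and the number of arrays limits the precision. The platform annotation gave 16098 probes 1 gene symbol each, 37519 none and 0 several. Of the probes of a gene, the one with the highest mean was taken. The groups were compared in R 4.3.3 with limma 3.58.1 (lmFit, eBayes, 2-sided), adjusted over 14884 genes and tested on simulated data. The members, lists and rules were chosen with earlier results of these data known. Named genes are the members, LTBP1, LTBP3, LTBP4, FBN1, FBN2, NRROS, TGFB3, THBS1, ITGB8 and ITGAV, up to 5 past the threshold of each list or, where none passed, the 2 with the smallest p, the neighbours and the 5 most alike genes, without small RNA genes and uncharacterised loci. CCN2, TGFB1, TGFB2, TGFBR1, TGFBR2, OTX2, KRT18, TYRP1, RPE65, BEST1, FOXP3, DCN, THY1 and S100A4 were named after their values or absence were seen. Neighbours and strands came from RefSeq on GRCh38.p14, as did the promoters. Alternatives were a filter on dim genes, quantile normalization, median centring, an intensity trend with robust estimation, array weights, averaged probes, every probe, the replicate block and leaving out each array.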

Additional observations from a re-analysis of the deposited data

How the results depend on the processing

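LTBP2 and LRRC32 were lower with FAC in all 11 alternatives run for each, from -0.58 to -0.44 for LTBP2 and from -1.03 to -0.82 for LRRC32. The value of LTBP2 moved by more than the replicate spread only with both probes averaged (-0.44). Leaving out 1 array gave -0.58 to -0.50 for LTBP2 and -1.03 to -0.82 for LRRC32. The 555 genes called over all became 840 without the dimmest 33.3% of genes, 1026 with an intensity trend and robust estimation, 254 probes when every probe was tested, 184 with the replicate block and 147 to 447 without 1 array (447 without untreated replicate 2, at most 250 without any other). The 13 called genes of the 7 lists became 23 with the trend, 4 with every probe, 6 with the replicate block and 6 to 11 without 1 array: 8 without untreated replicate 1, 11 without untreated replicate 2, 6 without untreated replicate 3 and 6, 8 and 7 without FAC replicates 1, 2 and 3. LTBP1 passed in 0 of 14 alternatives, and LTBP3 and FBN1 in 2 each. LTBP4 lay between -0.070 and 0.011 without 1 array, and changed sign without FAC replicate 2. Same-numbered arrays did not deviate together (correlations over genes of -0.02, -0.03 and -0.15), so the replicate numbers are not taken as pairs. The cause of these shifts was not tested. No result met the conditions for a closer look: groups of 3 allow no outlier test. The limit of these data is 3 arrays a group without detection calls.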

Other observations

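Promoter windows of 4 of the 5 genes nearest to LTBP2 and of 4 of the 5 nearest to LRRC32 were searched for the same cores, as letters only; HILPDA and HMCN1 were not analysed here. Around LTBP2, windows of KDM3A and LXN held neither core, 1 of 3 PGM1 windows held the HIF core at base -26 and 1 of 2 NAV1 windows held the SMAD core at base -35. Around LRRC32, the ANKRD37 window held 3 HIF cores at bases -162, -161 and -143, of which the first pair overlap, the SMAD6 window held 1 at base -87, and the NKAIN2 window held 1 at base -223 with SMAD cores at bases -213 and -59. The IFI44L window held neither.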
